A study of Mus musculus with 6 samples.

Results

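The estrogen receptor acts on its target genes through coregulators, and 8 of these genes are described here in isolated mammary epithelial cells of pubertal mice. They are *Nrip1*, the p160 coactivators *Ncoa1*, *Ncoa2* and *Ncoa3*, the acetyltransferases *Ep300* and *Crebbp*, the Mediator subunit *Med1* and the corepressor *Ncor1*. The 8 genes were found by symbol among the 61880 rows of the count matrix, and their 8 loci held 14 of these rows. *Nrip1* was included because the row with its symbol differed between the genotypes, so the difference between *fat-1* and WT samples in any measure of *Nrip1* is a description and was not tested. The other 7 genes were included as partners of the receptor.

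RNA was sequenced from 3 pooled *fat-1* samples and 3 pooled WT samples. All mice were females of 6 to 8 weeks on the FVB/NJ background, kept for life on the diet of their parents, a modified AIN93G diet with 10% fat by weight from safflower oil, which supplied 22% of the energy. The *fat-1* mice carried a *Caenorhabditis elegans* transgene whose desaturase turns *n*-6 into *n*-3 PUFA throughout the body, and the WT mice lacked it. Each sample was a pool of cells from the inguinal glands of several mice, so *p*-values measure the spread between pools. The counts of a sample summed to between 204539059 and 232148824, and values are given as CPM, the counts of a row relative to all counts of its sample after TMM normalization.

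Estrogen receptor alpha drives the growth of the mammary ducts at puberty. When estrogen is bound, the receptor takes up coactivators through short leucine-rich motifs. The p160 proteins bind first and bring in *Ep300* and *Crebbp*, which acetylate histones, and *Med1* links the receptor to the Mediator complex and RNA polymerase II. *Ncor1* carries histone deacetylases to repressed genes. *Nrip1* (RIP140) also binds the receptor when estrogen is bound, but it mostly limits transcription, and its own gene is a well known estrogen target. Mice without *Nrip1* have poorly developed mammary ducts, and in fat and muscle the protein represses genes of energy use.

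*Nrip1* (ENSMUSG00000048490) lies on the minus strand of chromosome 16, from 76287400 to 76373827 in GRCm38. It has 8 annotated transcripts, 4 of them coding, and the whole coding part of 3483 bp lies in 1 exon. No other annotated gene overlaps it. The RefSeq promoter table gives *Nrip1* 2 start sites, the inner one within the span of the gene, and the 250 bases upstream of each are shown because a locus with several rows can hold transcripts from different starts. Capitals mark an estrogen response element half-site (GGTCA) in the first and a pair of overlapping GC boxes (GGGCGG) in the second, and letters are 5′ to 3′ on the minus strand, from RefSeq on GRCm38.p6.
*Nrip1* outer start, chr16:76373828-76374077: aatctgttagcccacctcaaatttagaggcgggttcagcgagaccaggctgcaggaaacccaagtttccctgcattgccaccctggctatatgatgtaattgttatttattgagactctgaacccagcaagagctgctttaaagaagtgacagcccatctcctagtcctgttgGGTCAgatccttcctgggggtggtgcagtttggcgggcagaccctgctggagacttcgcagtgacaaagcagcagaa
*Nrip1* inner start, chr16:76373050-76373299: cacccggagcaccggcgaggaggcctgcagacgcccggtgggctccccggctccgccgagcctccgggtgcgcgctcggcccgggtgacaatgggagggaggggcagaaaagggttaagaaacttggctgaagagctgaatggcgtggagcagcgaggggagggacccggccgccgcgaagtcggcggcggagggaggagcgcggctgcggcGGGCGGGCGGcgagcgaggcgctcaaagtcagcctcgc

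These windows differ in base composition. The outer window had 51.2% GC and 4 CpG, close to the median of 52.4% GC over 32851 promoter windows, and the inner window had 73.6% GC and 32 CpG, at percentile 94.7 of all windows. On both strands, 35.2% of all windows held GGTCA and 32.7% held GGGCGG. The full element, GGTCA followed 3 bases later by its reverse complement, was found in 0.0639% of all windows and in none of the windows of *Nrip1*, *Ncoa1*, *Ncor1*, *Ep300*, *Crebbp* and *Med1* that were available. A match to these letters is a description and not a binding site, and which start each row of the matrix uses is not given by the matrix.

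The row with the *Nrip1* symbol was low in all samples labeled *fat-1*. The study lists *Nrip1* as higher in *fat-1*, with a log2 fold change of the same size after rounding. The reason for the opposite sign was not tested, and every direction given here rests on the sample labels. The *fat-1* samples had 174, 60 and 112 counts in this row, or 0.829, 0.280 and 0.538 CPM. The WT samples had 2038, 966 and 1224 counts, or 9.52, 4.27 and 5.94 CPM. The highest *fat-1* sample therefore lay below the lowest WT sample, and the means of 0.549 ± 0.274 and 6.58 ± 2.68 CPM (SD, n = 3 each) correspond to −3.58 on the log2 scale (standard error 0.52). When any 1 sample was left out, the log2 fold change stayed between −4.00 and −3.22. As this difference chose the gene, that range describes the row and is no support for the difference. Of all 30683 rows tested, 5.26% had CPM values that did not overlap between the genotypes.

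**Figure D1:**
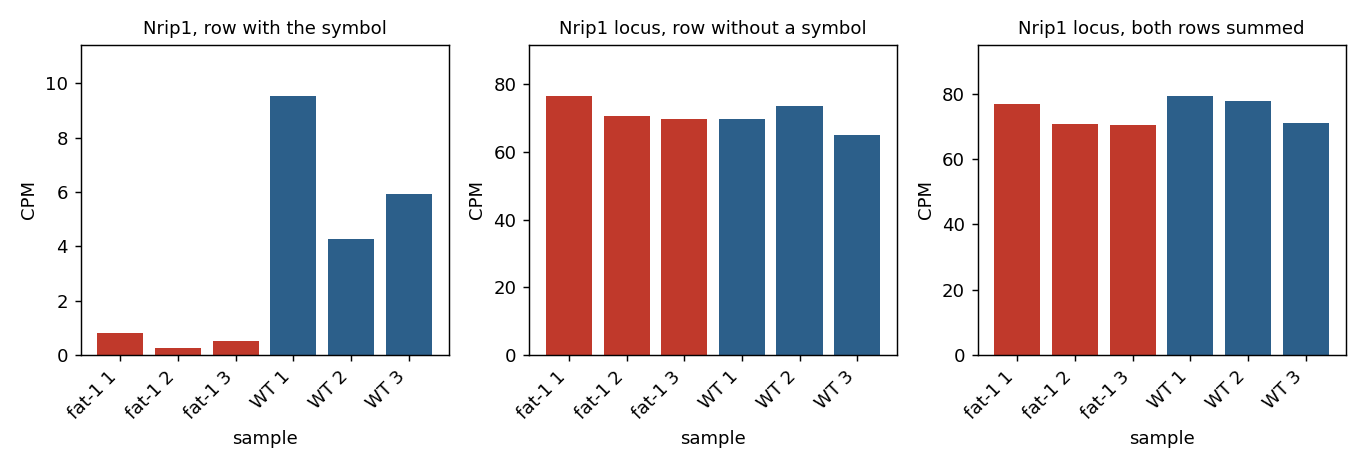
CPM in each sample for the row with the *Nrip1* symbol, the other row of its locus and the sum of both (*fat-1* red, WT blue, 1 bar per sample, each panel with its own axis from 0). The row with the symbol differs between the genotypes and reaches at most 9.52 CPM, whereas the other row and the sum overlap and lie between 65.0 and 79.2 CPM.

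Most *Nrip1* counts were in a second row of the same locus, which has no symbol. This row held 16033, 15096 and 14550 counts in *fat-1* and 14909, 16652 and 13387 in WT. Its means were 72.2 ± 3.59 CPM in *fat-1* and 69.4 ± 4.33 CPM in WT, which differ by 0.06 on the log2 scale (standard error 0.12). The genotypes overlapped in this row.

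With both rows added, the *Nrip1* locus had 76.8, 70.6 and 70.5 CPM in *fat-1* and 79.2, 77.8 and 71.1 CPM in WT. The means were 72.7 ± 3.62 and 76.0 ± 4.34 CPM (SD, n = 3 each). The log2 fold change of the sum was −0.07 (standard error 0.09), and it stayed between −0.10 and −0.03 when any 1 sample was left out. The lowest WT sample lay between the *fat-1* samples, so the large difference in the row with the symbol was not seen in the locus as a whole. As the row held at most 12.0% of the locus in any sample, its complete loss could lower the sum by no more than that.

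The row with the symbol held 1.07% (95% Wilson interval 0.926 to 1.24), 0.396% (0.308 to 0.509) and 0.764% (0.635 to 0.918) of the locus counts in *fat-1*. In WT it held 12.0% (11.5 to 12.5), 5.48% (5.16 to 5.83) and 8.38% (7.94 to 8.84). These intervals treat the counts as independent reads, which is uncertain because the step from coverage to counts is not given. They leave out the spread between pools and are narrow beside that of the WT pools. The difference of the mean shares, *fat-1* minus WT, was −7.88 percentage points. Over 3652 loci with 1 row that has a symbol, at least 1 that has none and a mean of at least 10 CPM, the share held by the row with the symbol did not overlap between the genotypes in 308 (8.43%).

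A division of the locus over rows was also found for *Ncoa2*, *Ncor1*, *Ep300* and *Med1*, and the other 3 members had a single row. The division moved from sample to sample. The share held by the row with the symbol spanned 43.8 percentage points over the 6 samples for *Ncoa2*, 37.4 for *Ncor1*, 66.4 for *Ep300* and 32.3 for *Med1*, beside 11.6 for *Nrip1*. The median range over the 3652 loci was 20.4 percentage points, and 1861 of them (51.0%) reached at least 20. In these 4 genes the shares of the genotypes overlapped.

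For *Ep300*, the row with the symbol held 35051, 7969 and 21504 counts in *fat-1* and 20779, 11436 and 17394 in WT. The row without a symbol held 6105, 34466 and 17689 counts in *fat-1* and 17664, 29574 and 21411 in WT. The symbol thus had 85.2%, 18.8% and 54.9% of the locus in *fat-1* and 54.1%, 27.9% and 44.8% in WT, and the highest and the lowest of the 6 shares were both *fat-1* samples (two-sided exact permutation *p* = 0.6). Another row of this locus, *Gm23880*, a small gene that lies inside *Ep300*, had 1 count in each sample.

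For *Ncoa2*, the row with the symbol held 4437, 11001 and 10529 counts in *fat-1* and 10050, 5702 and 9485 in WT. The other row held 15808, 6900 and 5485 counts in *fat-1* and 8133, 11443 and 8125 in WT. The low share of 21.9% in *fat-1* 1 and the high shares of 61.5% and 65.7% in the other *fat-1* samples lay on either side of all WT shares, which were between 33.3% and 55.3% (two-sided exact permutation *p* = 0.9).

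For *Ncor1*, 1 sample stood apart. The row with the symbol held 5498, 6594 and 6975 counts in *fat-1* and 6440, 6083 and 25771 in WT, which is 8.01% to 11.8% of the locus in 5 samples and 45.4% in WT 3. The other row held 63176, 57316 and 52360 counts in *fat-1* and 58463, 56325 and 30948 in WT, so it was lowest in the same sample. On the log2 scale the row with the symbol was −1.01 in *fat-1* relative to WT (standard error 0.63, adjusted *p* = 1.00, edgeR quasi-likelihood test), and without WT 3 it was 0.08. The two-sided exact permutation *p* of the share was 0.7.

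For *Med1*, the row with the symbol held 11661, 13934 and 13492 counts in *fat-1* and 7727, 14615 and 8811 in WT. The other row held 2915, 5912 and 5979 counts in *fat-1* and 7264, 4362 and 9643 in WT. The share of the row with the symbol was 80.0%, 70.2% and 69.3% in *fat-1* and 51.5%, 77.0% and 47.7% in WT (two-sided exact permutation *p* = 0.3), so that WT 2 lay among the *fat-1* samples. On the log2 scale the row with the symbol was 0.37 in *fat-1* relative to WT (standard error 0.24, adjusted *p* = 1.00, edgeR quasi-likelihood test). Without WT 2 it was 0.65, which was at the unadjusted threshold of 0.05 but not at the adjusted one.

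**Figure D2:**
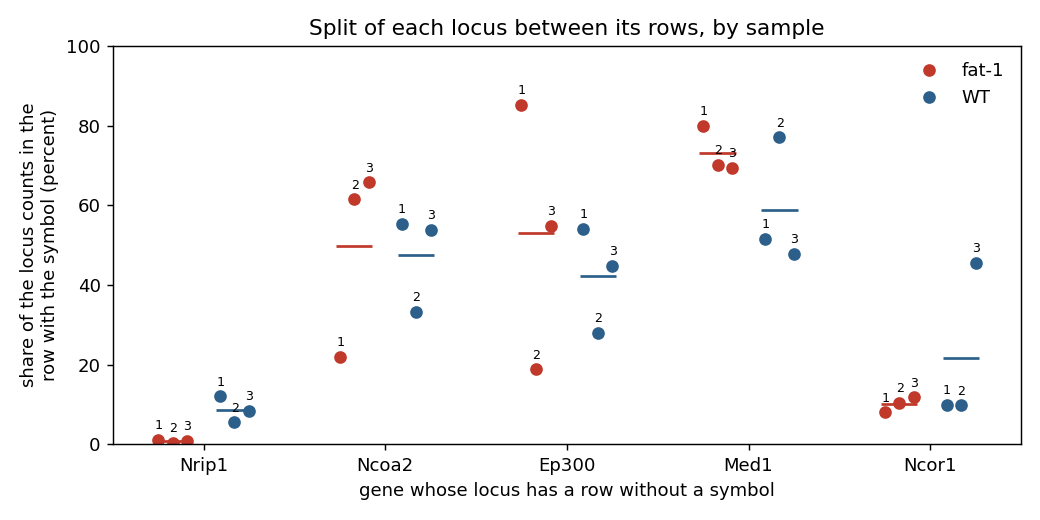
Share of the locus counts held by the row with the gene symbol, in percent, for the 5 members whose locus has a row without a symbol (*fat-1* red, WT blue, 1 point per sample with its replicate number, lines at the genotype means). *Nrip1* has the lowest share of the 5 genes in every sample except WT 1 and no overlap between the genotypes, *Ep300* spans 66.4 percentage points, and WT 3 stands apart for *Ncor1*.

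Added over the rows of a locus, the 7 other coregulators had small differences between *fat-1* and WT. None of the 7 was called at an unadjusted *p* of 0.05, where 1.14% of the 24061 loci tested were called (0.478% higher and 0.661% lower in *fat-1*), and none had genotypes that did not overlap, where 4.15% of the loci had. At an adjusted *p* of 0.05, edgeR's quasi-likelihood test called 0 loci, beside 274 at the unadjusted threshold, edgeR's exact test called 6 and DESeq2 called 8. The adjusted *p* of each of the 7 was 1.00 (edgeR quasi-likelihood test). Over all 8 sums the median log2 fold change was 0.04 and the median size 0.06, beside 0.00 and 0.11 over all loci, which were not matched for level. In the lists of related genes below, the median size was 0.044 for other coactivators, 0.035 for other corepressors and 0.034 for other Mediator subunits. The members were thus not smaller in size than these.

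Among the p160 coactivators, *Ncoa1* (SRC-1) had 43.0, 44.0 and 40.7 CPM in *fat-1* and 44.6, 41.6 and 42.2 CPM in WT. Its log2 fold change was −0.01 (standard error 0.09), and the 95% interval of the fold was 0.860 to 1.15. *Ncoa2* (SRC-2, TIF2) had 96.0, 83.4 and 77.0 CPM in *fat-1* and 85.0, 75.7 and 85.7 CPM in WT. Its fold lay between 0.861 and 1.26, although its separate rows differed up to 2.86-fold between samples. *Ncoa3* (SRC-3, AIB1), which is amplified in some breast tumors, had 105, 131 and 116 CPM in *fat-1* and 103, 110 and 133 CPM in WT, with a fold between 0.815 and 1.28. In *Ncoa3* each genotype held a sample above 130 CPM, *fat-1* 2 and WT 3.

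The acetyltransferases varied little between samples. *Ep300* (p300) had 195, 198 and 188 CPM in *fat-1* and 180, 181 and 189 CPM in WT, so its sum varied 1.10-fold over the samples while its rows varied 4.48-fold and 5.54-fold. Its log2 fold change was 0.08 (standard error 0.07), with a fold between 0.940 and 1.19. *Crebbp* (CBP), its paralog, had 124, 142 and 129 CPM in *fat-1* and 129, 130 and 142 CPM in WT, and its fold lay between 0.844 and 1.14.

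*Med1*, the Mediator subunit that contacts the receptor, had 69.1, 92.5 and 93.6 CPM in *fat-1* and 70.1, 83.8 and 89.8 CPM in WT. The first sample of each genotype was the lowest, and the fold between the genotypes lay between 0.805 and 1.36, the widest interval of the 7. *Ncor1*, the corepressor, had 326, 298 and 285 CPM in *fat-1* and 303, 275 and 276 CPM in WT, with a fold between 0.921 and 1.23.

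**Figure D3:**
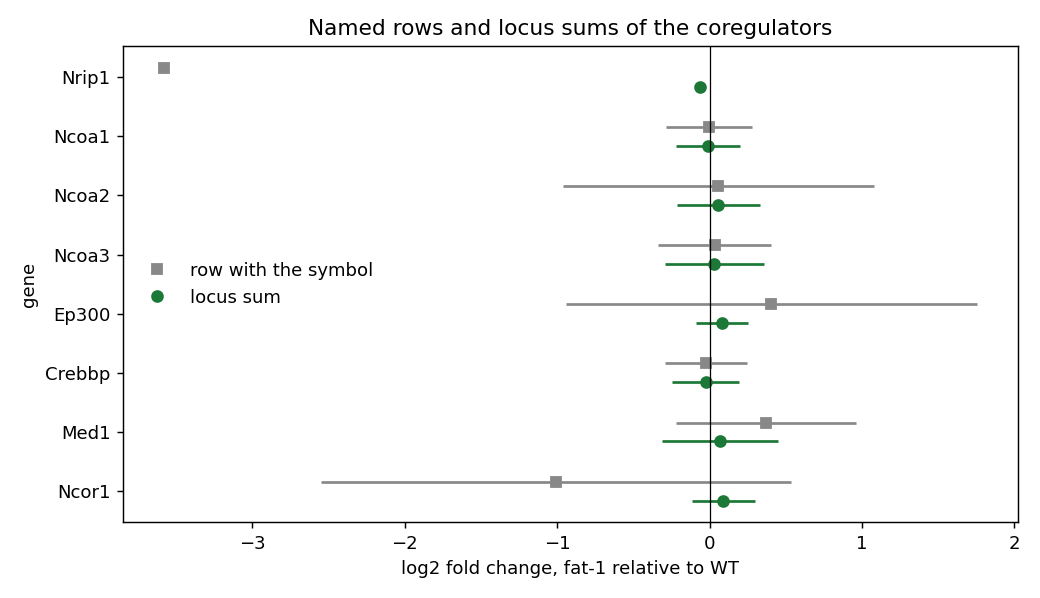
Log2 fold change of *fat-1* relative to WT for the row with the symbol (grey squares) and the locus sum (green circles) of each gene, with 95% intervals from the edgeR fit and none for *Nrip1*, which was chosen by this difference. The locus sums lie between −0.07 and 0.09, and *Nrip1* at −3.58 and *Ncor1* at −1.01 are the rows farthest from 0.

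Levels of different genes were compared per kb of annotated exon, over the 6 samples and on the locus sums. *Ncor1* was the highest at 22.9 CPM per kb, followed by *Ncoa3* at 14.7, *Ep300* at 13.2, *Crebbp* at 9.79, *Med1* at 9.50, *Nrip1* at 6.49, *Ncoa2* at 5.36 and *Ncoa1* at 4.98. The ranges of neighbours overlapped for *Ncoa3* and *Ep300*, for *Crebbp* and *Med1*, and for *Ncoa2* and *Ncoa1*, and these pairs are not ordered beyond the spread between samples. *Nrip1*, between 6.15 and 6.91 CPM per kb, lay above *Ncoa2* and below *Med1* in every sample. Unannotated exons, overlapping genes and transcripts that use part of the exons would change this scale. All members except *Nrip1* overlap other annotated genes, and *Ncoa2* overlaps 7 on its own strand. *Ncoa3* overlaps *Sulf2* on the other strand, and *Ncor1* overlaps *Ttc19* and *Pigl*.

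**Figure D4:**
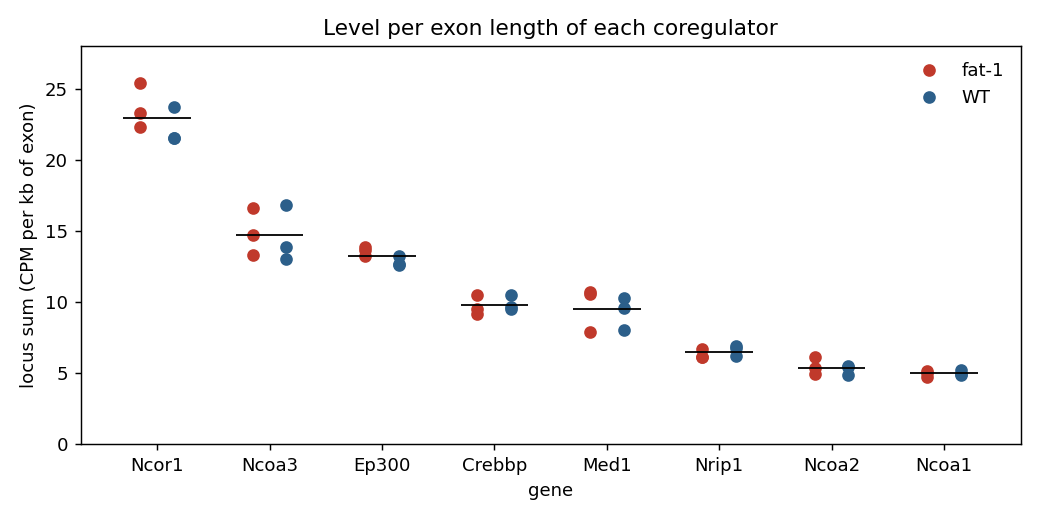
Locus sums in CPM per kb of annotated exon for the 8 genes, ordered by their mean over 6 samples (*fat-1* red, WT blue, 1 point per sample, black line at the mean). *Ncor1* lies above 21 in every sample, *Nrip1* between 6.15 and 6.91, and *Ncoa2* and *Ncoa1* overlap at the lower end.

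Ratios within a sample were compared for paralogs and for coactivators against the corepressor. *Crebbp* relative to *Ep300* was 0.634, 0.716 and 0.683 in *fat-1* and 0.717, 0.720 and 0.753 in WT. The genotypes did not overlap, but the gap between the closest samples was small, and the two-sided exact permutation *p* of 0.1 is the smallest that 3 against 3 samples allow (adjusted *p* = 0.4 over 4 ratios, exact permutation test). *Ncoa2* relative to *Ncoa1* was 2.01 ± 0.196 in *fat-1* and 1.92 ± 0.107 in WT, and *Ncoa3* relative to *Ncoa1* was 2.76 ± 0.279 and 2.70 ± 0.423 (SD, n = 3 each). *Ncor1* relative to the sum of the p160 genes was 1.24 ± 0.0919 and 1.19 ± 0.125 (SD, n = 3 each), and the exact permutation *p* of these 3 ratios was between 0.6 and 0.8.

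The samples differed in the cells they held. *Epcam*, an epithelial surface protein, had 787, 197 and 339 CPM in *fat-1* and 614, 356 and 199 CPM in WT, and *Ptprc* (CD45), carried by leukocytes, had 166, 407 and 274 CPM in *fat-1* and 157, 201 and 398 CPM in WT. All markers of luminal, basal, immune, fibroblast and endothelial cells were counted in every sample, so the label of epithelial cells does not cover all RNA of a sample. The 8 immune markers summed to between 1048 and 2293 CPM in *fat-1* and between 1061 and 2342 CPM in WT. The 7 pan-luminal markers summed to between 1043 and 4600 CPM in *fat-1* and between 1090 and 3453 CPM in WT. The 6 fibroblast markers summed to between 1551 and 6065 CPM in *fat-1* and between 3332 and 5617 CPM in WT. *fat-1* 2 and WT 3 were highest in immune and lowest in epithelial markers. In bulk samples, fewer cells of a type and less RNA per cell cannot be told apart.

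*Ncoa3* followed these markers. Its log2 level rose with the mean log2 level of the immune markers over the 6 samples (r = 0.987, with *p* = 0.00417 by exact permutation, or 0.0333 after adjustment for 16 relations). By rank the relation was rho = 0.943, with *p* = 0.0167 by exact permutation, or 0.133 adjusted. It was r = 0.965 without *fat-1* 2 and WT 3, the samples farthest from the median. Within the genotypes r was 0.978 in *fat-1* and 1.00 in WT, over 3 samples each. Against the epithelial markers r was −0.979 (*p* = 0.00278 by exact permutation, or 0.0333 adjusted), with rho = −0.943 (*p* = 0.0167 by exact permutation, or 0.133 adjusted) and r = −0.902 without the same samples. The immune and epithelial means were themselves related at r = −0.970, so these are not separate relations. How many of all loci follow these markers as closely was not counted, so the relation is not known to be particular to *Ncoa3*.

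The other members had weaker relations over the 6 samples. *Crebbp* had r = 0.910 with the immune markers (*p* = 0.0153, or 0.0815 adjusted, and rho = 0.829 with *p* = 0.0583, or 0.274 adjusted, all by exact permutation), which was 0.492 without *fat-1* 2 and WT 3 and so rests on those samples. *Med1* had r = 0.873 (*p* = 0.0375, or 0.12 adjusted, and rho = 0.771 with *p* = 0.103, or 0.274 adjusted, all by exact permutation) and 0.977 without them. The *Nrip1* locus sum had r = −0.897, in the opposite direction (*p* = 0.0667, or 0.152 adjusted, and rho = −0.600 with *p* = 0.242, or 0.387 adjusted, all by exact permutation), and −0.877 without them. Over the 6 samples, r was −0.176 for *Ncoa1*, −0.259 for *Ncoa2*, −0.549 for *Ncor1* and 0.434 for *Ep300*. Without *fat-1* 2 and WT 3 it was −0.865, −0.763, −0.702 and −0.0214, so these values too depend on those samples. With the immune marker mean as a further term of the fit, the log2 fold changes of the 8 locus sums lay between −0.05 and 0.10. That of *Ncoa3* was 0.00, with a standard error of 0.06 in place of 0.13.

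**Figure D5:**
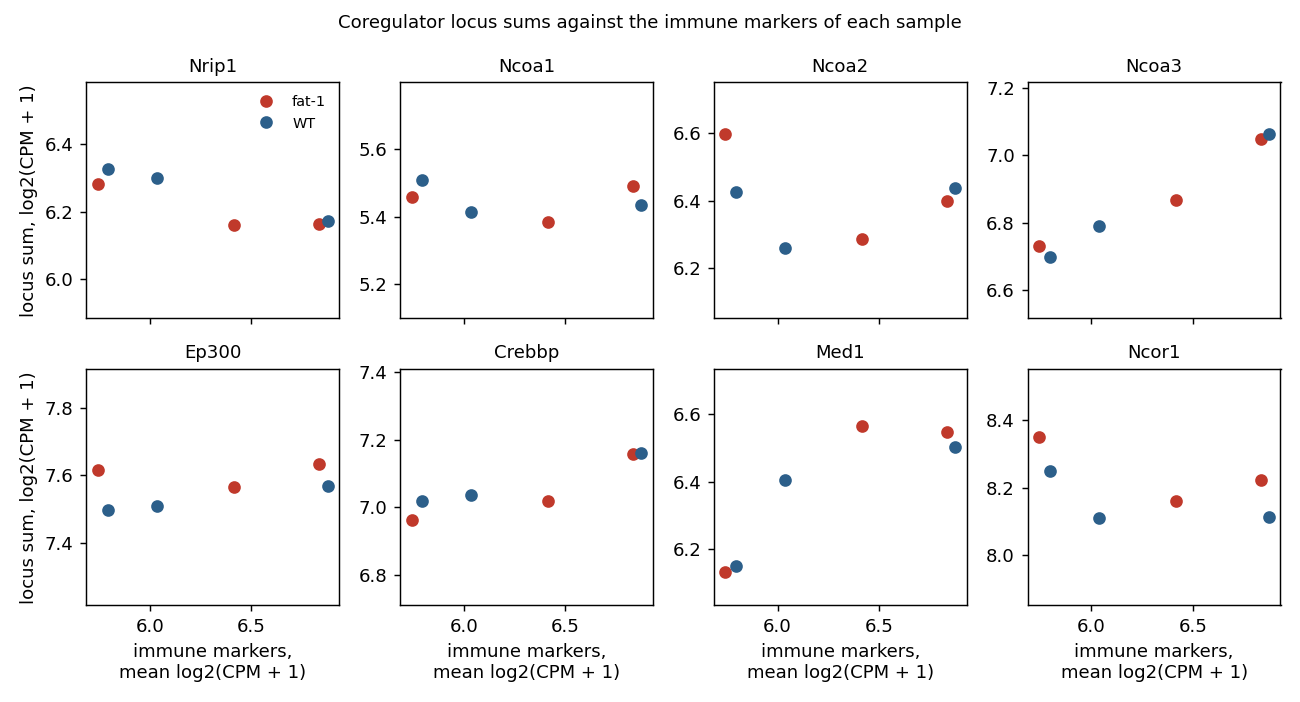
Locus sum of each gene, as log2(CPM + 1), against the mean log2(CPM + 1) of 8 immune markers (*fat-1* red, WT blue, 1 point per sample, all panels with the same height of scale). *Ncoa3* climbs along the axis in both genotypes (r = 0.987), and *Nrip1* has lower values at the right (r = −0.897). *Ncoa1* shows no order over all 6 samples (r = −0.176), but has r = −0.865 without *fat-1* 2 and WT 3.

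The wider machinery of the receptor was read on locus sums from lists of genes. Of 25 other coactivators (histone modifiers, chromatin remodelers and RNA helicases among them), 21 tested corepressors, 29 other Mediator subunits, 18 tested nuclear receptors that bind *Nrip1*, 12 estrogen targets and 5 metabolic genes that *Nrip1* represses, 0 were called in either direction at the unadjusted threshold of edgeR's quasi-likelihood test, where 1.14% of all loci were. Medians of the log2 fold change were 0.01, 0.03, −0.02, −0.00, −0.05 and −0.06, beside 0.00 over all loci. In these lists, 9, 5, 9, 4, 2 and 1 genes share their locus with a row of another symbol, so their sums hold counts of both, and leaving out predicted (Gm) genes and microRNAs they are 5, 1, 7, 2, 1 and 1.

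The receptor and its targets varied widely between pools. *Esr1*, estrogen receptor alpha, had 19.4, 9.00 and 14.1 CPM in *fat-1* and 23.3, 15.4 and 8.05 CPM in WT (log2 fold change −0.14, standard error 0.43). *Pgr*, the progesterone receptor and an estrogen target, had 213, 67.2 and 146 CPM in *fat-1* and 243, 147 and 72.8 CPM in WT, −0.12 on the log2 scale. *Areg*, the ligand through which estrogen drives duct growth, had 19.9, 7.27 and 14.3 CPM in *fat-1* and 22.6, 25.7 and 11.0 CPM in WT, a log2 fold change of −0.52 (standard error 0.44). *Greb1*, another estrogen target, had 3.54, 2.67 and 5.98 CPM in *fat-1* and 5.90, 4.91 and 2.83 CPM in WT, −0.16 on the log2 scale. The adjusted *p* of these 4 genes was 1.00 (edgeR quasi-likelihood test). In each genotype *Esr1*, *Pgr* and *Areg* were lowest in the sample with the most immune markers, *fat-1* 2 or WT 3, and the part of the markers in these levels was not tested.

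Rows with a symbol gave other results than locus sums in these lists too. At the unadjusted threshold, where 2.21% of the 30683 rows were called (1.07% higher and 1.14% lower in *fat-1*), 1 of 25 coactivator rows (4.0%), 0 of 21 corepressor rows, 1 of 29 Mediator rows (3.45%), 1 of 18 receptor rows (5.56%), 0 of 12 estrogen target rows and 2 of 5 metabolic rows (40.0%) were called, all with an adjusted *p* of 1.00. The row of *Nr3c1*, the glucocorticoid receptor, was 0.90 on the log2 scale (standard error 0.30), with 93.6%, 87.8% and 93.5% of its locus in *fat-1* and 68.6%, 30.1% and 48.1% in WT, while its locus sum had −0.00. *Med8*, a Mediator subunit, was −0.67 in its row (standard error 0.13), and the sum of its locus, which holds *Elovl1*, had −0.05. That row held 8.60% to 11.2% of the locus in *fat-1* and 14.1% to 17.2% in WT, so the sum is mostly of other rows. *Sra1*, a coactivator that also acts as an RNA, was −0.73 in its row (standard error 0.21) and 0.01 in the sum with *Apbb3*. Its row held 27.6% to 35.2% of the locus in *fat-1* and 44.6% to 63.7% in WT, so this sum is not a value of *Sra1* alone.

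Of the metabolic genes, *Cidea*, a lipid droplet protein, had 0.336 ± 0.115 CPM in *fat-1* and 0.806 ± 0.296 CPM in WT in its row (SD, n = 3 each, log2 fold change −1.26). Its second row had counts only in *fat-1* 1, where the row with the symbol held 9.23% of the locus, and its locus sum was 0.40 with a standard error of 0.77. *Cpt1b*, the muscle form of the enzyme that takes fatty acids into mitochondria, was 0.44 in its row (standard error 0.17) and −0.06 in the sum with *Chkb*. This row held 7.92% to 9.06% of its locus in *fat-1* and 5.43% to 7.10% in WT, so that sum too is mostly of other rows. The 5 adipocyte markers summed to between 84.5 and 107 CPM in *fat-1* and between 113 and 127 CPM in WT. Alone among the marker lists, their sums did not overlap between the genotypes, and how often sums over other genes do so was not counted. As single loci, 1 of 5 adipocyte and 2 of 5 endothelial markers did not overlap, where 4.15% of all loci did not. Of the 5 adipocyte markers, 3 had a positive log2 fold change, the median was 0.04, and 1 was called among locus sums, where 1.14% of all loci were. This was *Fabp4* (log2 fold change −0.31, standard error 0.12, adjusted *p* = 1.00 by edgeR), and the adipocyte-defining *Adipoq* and *Lep* were at most 0.50 and 0.17 CPM in any sample.

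The genes whose level followed the *Nrip1* locus sum most closely were named by the highest Pearson r of log2(CPM + 1) over the 6 samples, among 9399 loci with a mean of at least 10 CPM. They were *mt-Nd3* and *Gm28438* at 0.986, *Atxn7l3b* at 0.980 and *Klhl15* at 0.973, whose locus also holds *Mir7673*. In total 103 loci had r of at least 0.9, and with 6 points that share libraries, depth and cell content these values are a description. None of the other coregulators was among them. *Ncoa1* and *Ncor1* had r = 0.36, *Ncoa2* 0.19, *Ep300* −0.60, *Crebbp* −0.64, *Med1* −0.86 and *Ncoa3* −0.87.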

How the data were processed

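RNA of 3 pooled *fat-1* and 3 pooled WT samples was sequenced, and genotype and replicate came from the sample labels. The authors mapped paired reads to GRCm38 with HISAT2, assembled transcripts with StringTie and deposited whole-number counts per row that are not normalized. Versions, annotation, strand setting and the step from coverage to counts are not given in the sources used here, which leaves the counts of overlapping genes uncertain. The labels name total RNA and also an mRNA library. The *fat-1* transgene itself was not analysed here. Blank lines were skipped, and 0 value columns lacked a sample.

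Rows with the same locus number were added (53912 loci, 5916 with several rows). In R 4.3.3, edgeR 4.0.16 (filterByExpr, TMM, glmQLFit with legacy=FALSE, genotype as the only term, Benjamini–Hochberg adjustment, threshold 0.05) was fitted to all rows and, separately, to all loci, so CPM of rows and of their sum do not add exactly. It was tested on simulated data, at a smaller spread between samples than these data have and at the common spread of these data. Recovery of added changes was required only at the smaller spread. Recovery at the spread of these data was also computed but is not given here, so no power is stated for it. Standard errors were derived from the F statistic and log2 fold change. The alternatives were the exact test of edgeR, DESeq2 1.42.0, other size factors, no filter, a replicate block, an immune covariate and leaving out each sample. Python 3.11.15 and scipy 1.17.1 gave two-sided exact permutation tests, and matplotlib 3.10.9 the plots. The epithelial mean covers the hormone-sensing, pan-luminal and basal markers. Positions are from GENCODE for GRCm38. The deposited counts give a depth at which 3 samples per genotype, rather than counting error, limit the precision.

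Members and gene lists were chosen with earlier results of these data known. Genes named were the 8 members and the other rows of their loci, *Esr1*, *Pgr*, *Areg*, *Greb1*, listed loci at the unadjusted threshold, the 4 loci most like *Nrip1* and some markers. *Nr3c1*, *Med8*, *Sra1*, *Cidea*, *Cpt1b*, *Fabp4*, *Adipoq* and *Lep* were named after their values were seen, and *Med8* is among genes the study called on these samples. The study lists *Med8* as higher in *fat-1*, whereas its row here was lower in *fat-1* by a log2 fold change of the same size after rounding. The reason for the opposite sign was not tested.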

Additional observations from a re-analysis of the deposited data

How the results depend on the processing

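Across the alternatives the locus sums of *Ep300*, *Ncor1* and *Nrip1* and the row of *Med1* kept their direction. The row of *Nrip1* kept its direction too, which is no support because that difference chose the gene. Without a filter on low counts, 1136 rows and 579 loci had an unadjusted *p* at or under 0.05, with the immune covariate 1070 rows and 602 loci, beside 678 and 274. At the adjusted threshold, where edgeR's quasi-likelihood test gave 0, DESeq2 gave 93 rows and 8 loci and the exact test 32 rows and 6 loci. The cause was not tested. Leaving out each sample gave 635 to 986 rows and 204 to 542 loci at the unadjusted threshold (482 loci without *fat-1* 1, 542 without WT 3), and 0 to 2 rows and 0 to 1 locus at the adjusted one. The log2 fold change of the row turned for *Ncoa1* (−0.0301 to 0.0280), *Ncoa2* (−0.18 to 0.38, and −0.0891 with the immune covariate), *Ncoa3* (−0.0559 to 0.147), *Ncor1* (−1.37 to 0.0819), *Ep300* (−0.14 to 0.80) and *Crebbp* (−0.0821 to 0.0237) when 1 sample was left out. That of the locus sum turned for *Ncoa1* (−0.0331 to 0.0243), *Ncoa2* (−0.0235 to 0.127), *Ncoa3* (−0.0587 to 0.159), *Crebbp* (−0.0850 to 0.0334) and *Med1* (−0.0260 to 0.206). The share of the row with the symbol, *fat-1* minus WT, turned for *Ncoa2* (−5.78 to 16.1 percentage points), *Ncor1* (−17.7 to 0.191) and *Ep300* (−5.43 to 27.8). The correlation of *Ep300* with the epithelial and immune markers turned, to 0.153 and −0.0214, without *fat-1* 2 and WT 3. Sample numbers did not pair the samples, since same-numbered samples deviated together at r = 0.799, −0.164 and 0.132 over loci, and *fat-1* 2 was most like WT 3 (0.789). With the replicate block, 784 rows and 376 loci were at the unadjusted threshold and 0 at the adjusted one.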
